A study of Mus musculus with 3 samples.

Results

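Respiratory complex I is described here through its nuclear genes in mouse four-cell embryos grown from oocytes that had been put under high hydrostatic pressure (HP). Members were all genes whose name in the array annotation begins with Nduf, which gave 37 of 27670 genes and 52 of 41174 probes. They comprise 35 subunits of complex I (7 core and 28 accessory), the assembly factor Ndufaf1, and Ndufa4, which keeps the name but is now placed in complex IV. Of the 37 genes, 28 passed the filter on dim probes and were tested.

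HP oocytes were held at 20 MPa for 60 min at 37 °C, fertilized by intracytoplasmic sperm injection (ICSI) and cultured to the four-cell stage. Control oocytes went through the same handling and ICSI without the pressure. The 3 HP pools held 44, 30 and 37 embryos and the 3 control pools 36, 33 and 24. Each array compared 1 HP pool (Cy5) with 1 control pool (Cy3), with no dye swap, so dye and treatment cannot be told apart. The series title speaks of in vitro fertilization, whereas every sample label names ICSI. Strain and age of the mice are not given in the sources used here. The study's design calls the pools biological replicates. The p-values reflect the spread among 3 pairs of pools, moderated in limma toward the variance of all tested genes. This prior variance had 2.04 degrees of freedom, beside 2 from the arrays of a gene. Values after ± are standard errors (SE) moderated in the same way. Neither reaches beyond these arrays. In pooled embryos, fewer cells and less RNA per cell cannot be told apart.

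Complex I is the entry point of the mitochondrial respiratory chain: it takes electrons from NADH, leads them along iron-sulfur clusters in its matrix arm to ubiquinone, and pumps protons through its membrane arm. Core subunits carry out this chemistry and accessory subunits are needed for assembly and stability. The core subunits of the membrane arm are encoded by mitochondrial DNA, and no gene on the array carried their listed names. Cleaving embryos inherit their mitochondria from the oocyte and depend on oxidative metabolism before the blastocyst forms.

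Most tested Nduf genes had a mean signal that was lower in HP than in control embryos, but none passed an adjusted p of 0.05. A negative log2 ratio (HP over control) means lower in HP. The mean ratio was negative in 25 of 28 genes, against 51.7% of all 7254 tested genes. It was negative on all 3 arrays in 17 genes, against a background of 25%, and positive on all 3 in 2 genes, against 23.2%. In limma's moderated test 11 genes were lower at an unadjusted p under 0.05 (background 11.2%) and 1 was higher (7.25%). After Benjamini-Hochberg adjustment over all tested genes the count was 0 of 28, as it was for all genes (0%), with adjusted p from 0.175 to 0.990 among Nduf genes. Ndufaf1 (1 HP and 3 control arrays well above background) and Ndufs6 (1 and 2) passed the filter only through control. With both channels required on all arrays, 24 genes remained and 21 had a negative mean, a share not counted over all genes there. Of the 24, 15 were negative on all 3 arrays, against 25.1% of 4398 genes.

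The median log2 ratio of the 28 genes was −0.37, beside −0.01 for all tested genes. By array it was −0.08, −0.77 and −0.47 on arrays 1, 2 and 3, beside −0.02, −0.01 and 0.00 for all tested genes. The difference was small on array 1, where 20 of 28 genes were negative, and larger on arrays 2 and 3, with 22 and 24 negative. Of all tested genes, 52.2%, 51.1% and 48.9% were negative on arrays 1, 2 and 3.

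**Figure D1:**
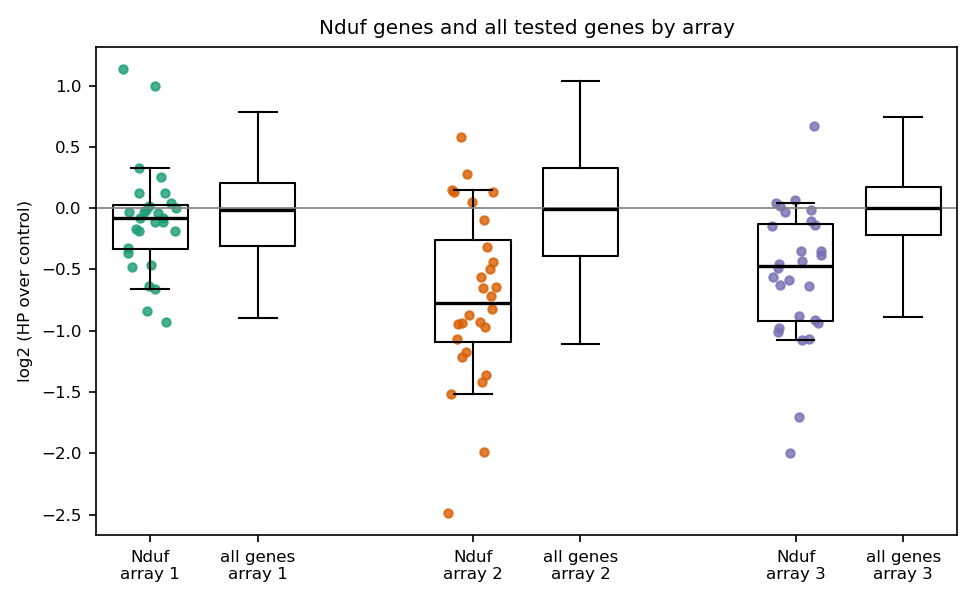
Log2 ratio (HP over control, y axis) of the 28 tested Nduf genes (points and boxes) and of all 7254 tested genes (boxes) on each array. Boxes span the quartiles with the median, and whiskers the 5th to 95th percentile; the Nduf medians of −0.08, −0.77 and −0.47 lie below those of all genes on each array.

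Some facts on the arrays bear on these values. Per array the scanner software called 17.5% to 19.9% of non-control spots well above background for HP and 18.5% to 23.2% for control. Saturation was called for 0 spots. Across 7250 genes with all 3 values, the ratios of arrays 2 and 3 correlated at r = 0.65, those of arrays 1 and 2 at 0.23 and those of arrays 1 and 3 at 0.22; the genes share pools and arrays, so this is a description only. HP pools 2 and 3 were close to each other, with an SD of their log2 difference of 0.231 over all genes, against 0.463 to 0.548 for the other HP pairs and 0.465 to 0.523 for control pairs. When replicates 2 and 3 were counted as 1, 6 Nduf genes were lower at an unadjusted p under 0.05 (6.78% of all tested genes) and the median was −0.30. Without array 1 the count was 17 (14% of all genes), without array 2 it was 6 (5.92%) and without array 3 it was 6 (6.14%).

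Markers checked the labelled tissue. Of 10 early embryo markers, 8 were well above background on all 3 arrays in HP and 7 in control. Nanog was well above background on no array, and Pou5f1 on no HP array. The summed signal was 27110 to 31190 in HP and 24890 to 27370 in control pools. Most of it came from Dppa5a (16922 to 21477 in HP, 16349 to 18981 in control) and Dppa3 (6656 to 10322 in HP, 5990 to 7882 in control). None of 10 cumulus and granulosa cell markers was above background on all arrays in either group, with sums of 776 to 786 in HP and 780.0 to 813 in control. Of 6 sperm markers, 0 in HP and 1 in control were well above background on all arrays, and Tnp1, Tnp2, Odf1 and Akap4 were so on none. Among the early embryo markers Gdf9 (0.97 ± 0.29) and Zscan4c (0.92 ± 0.27) were higher in HP at an unadjusted p under 0.05, each nearest 0 on array 1, and Cdh1 was at −0.42 ± 0.18; their part in the Nduf values was not tested.

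The probes on which the results turn are shown by the first 30 of their 60 bases, 5′ to 3′, with G and C in capitals, since base composition can affect hybridization. Positions are mm7, as the array design gives them, and the position of a probe within exon or untranslated region is not annotated there. They were chosen because Ndufa12 and Ndufa7 have probes that read differently, Ndufc1 has probes that read alike, Ndufc2 had the lowest p and Ndufb6 was the gene that was higher.
Ndufa12, chr10:93780198-93780257 (+): aaGaaGattCatGaatGGGttCCaCCtttG
Ndufa12, chr10:93758942-93759001 (+): tGGaaataaataCtaCGaaGaCaaCaaGCa
Ndufa12, chr10:93758922-93758981 (+): CtGGtGGGaGaaGaCaaatatGGaaataaa
Ndufa7, chr17:31912229-31912288 (+): CCtaGGttaCCttGCtatatatGtCtCtaG
Ndufa7, chr17:31898580-31899559 (+): tatCCaaaaGCtGCGGaaCtGGGCGtCtGG
Ndufc1, chr3:51530014-51530073 (-): GCGaatatGaGtCaGtCaaCaCGttttGCa
Ndufc1, chr3:51531904-51532695 (-): CCtCGGttttCatGtGGatttatCtCatCC
Ndufc2, chr7:93438306-93438365 (+): CCGCCaGCttCtGttCGttaCGtCCtttGt
Ndufb6, chr4:40411288-40416145 (-): GttCaCtattatGtCaaatatCatatGGCt
The Ndufa12 probes at 93758942 and 93758922 share 40 bases, and neither shares more than 6 with the probe at 93780198. The spans of the Ndufb6 probe, of the Ndufa7 probe at 31898580 and of the Ndufc1 probe at 51531904 are longer than the probe itself. Among the 28 probes that represent the tested genes the median share of G and C was 45%, against 41.7% for all 8590 tested probes. The ratio correlated weakly with this share, r = −0.17 over the 28 probes and 0.05 over all, and 24 of 28 genes lay below the median of probes within 5 percentage points of their own share.

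The tested core subunits of the matrix arm all had a negative mean. Of 7 on the array 4 were tested (median −0.24), and 51.7% of all tested genes had a negative mean. At an unadjusted p under 0.05 in limma's test 1 of the 4 was lower, against 11.2% of all tested genes. The difference from that share was not tested. Ndufs7, which carries the iron-sulfur cluster that hands electrons to ubiquinone, read 163, 99.4 and 138 in HP pools 1, 2 and 3, against 209.7, 266 and 278 in the matching control pools (normalized signal, arbitrary units). All HP values were below all control values, with the smallest gap on array 1. The log2 ratio was −0.93 ± 0.24 (moderated SE, n = 3, limma adjusted p = 0.200), a fold of 0.524. With the deposited log ratio of the scanner software in place of the values computed here it was −1.87 (limma adjusted p = 0.252). Ndufs3, a core subunit of the part that holds the ubiquinone site, read 143, 119 and 128 in HP and 155, 176 and 174 in control pools. The groups did not overlap either, but the ratio of −0.37 ± 0.14 missed the unadjusted threshold (limma adjusted p = 0.278).

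Ndufs1, the largest core subunit, which carries several iron-sulfur clusters, read 190.1, 181 and 163 in HP pools and 159, 246 and 179.7 in control pools. The groups overlapped and array 1 ran the other way, giving −0.11 ± 0.17 (limma adjusted p = 0.744). Ndufv1, which binds NADH and the flavin, read 86.9, 93.4 and 88.9 in HP and 84.5, 99.7 and 86.3 in control pools, near the detection limit: it was well above background on 2 HP and 1 control arrays. Its ratio of −0.00 ± 0.11 is therefore a weak measurement. The core subunits Ndufs8 and Ndufv2 stayed at background level in both channels of all arrays.

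Accessory subunits of the matrix arm gave the lowest ratio of the family. Of 8 on the array 6 were tested, and 5 had a negative mean (median −0.49), against 51.7% of all tested genes. At an unadjusted p under 0.05 in limma's test 4 were lower, against 11.2%. Ndufa12, which sits where the NADH-oxidizing part joins the rest of the matrix arm, read 593, 183 and 247 in HP pools and 743, 1023 and 806 in control pools. HP pools 2 and 3 were far below every control pool, while HP pool 1 was nearer to the lowest of them. The ratios were −0.33, −2.49 and −1.71, with a mean of −1.51 ± 0.46 (moderated SE, n = 3, limma adjusted p = 0.231), a fold of 0.352. The SD of the 3 ratios was 1.09. The other tested Ndufa12 probe gave 96.5, 91.7 and 91.4 in HP and 99.3, 98.5 and 94.7 in control pools, a mean ratio of −0.06. This second probe was above background on 2 HP and 3 control arrays and the remaining Ndufa12 probe failed the filter, so the low ratio rests on 1 probe; RefSeq also lists a pseudogene, Ndufa12-ps, and hybridization to it was not tested.

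Ndufa7 read 467, 283 and 290.2 in HP pools and 505, 658 and 555 in control pools, with no overlap and a gap that was small on array 1. The ratio was −0.76 ± 0.25 (limma adjusted p = 0.255), while its other tested probe, nearer background, gave −0.13. Ndufa9, which lies beside the ubiquinone site, read 321, 240.5 and 253 in HP and 441, 463 and 354 in control pools. HP was lower on every array, with ratios of −0.46, −0.95 and −0.49, and a mean of −0.63 ± 0.15 (limma adjusted p = 0.194).

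Ndufa2, a small subunit with a thioredoxin-like fold, read 158, 189.7 and 187 in HP pools and 179.6, 267 and 239 in control pools. It was lower on each array although the groups overlap, with −0.34 ± 0.12 (limma adjusted p = 0.264). Ndufa5 read 175, 136 and 117 in HP pools and 87.6, 260.4 and 119 in control pools. It went both ways, with ratios of 0.996, −0.94 and −0.03 and a mean of 0.01 ± 0.41. Ndufs6, mean −0.04, was well above background on 1 HP and 2 control arrays, and Ndufa6 and Ndufs4 failed the filter.

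Accessory subunits of the membrane arm were the largest group, with 15 of 19 tested. A negative mean was found in 13 (median −0.36), against 51.7% of all tested genes. At an unadjusted p under 0.05 in limma's test 5 were lower (11.2% of all tested genes) and 1 was higher (7.25%). Ndufc2, a small membrane-spanning subunit, read 149.5, 131 and 149 in HP pools and 285, 295 and 314 in control pools. Its values were tight within each group and far apart between groups. The ratio of −1.06 ± 0.11 (limma adjusted p = 0.175) had the smallest unadjusted p of the family, rank 12 of 7254 genes, and with the deposited log ratio Ndufc2 was at −1.82. Ndufs5, on the face toward the intermembrane space, read 344, 171 and 207 in HP pools and 388, 680.1 and 828 in control pools. As with Ndufa12, array 1 gave little difference (−0.17) and arrays 2 and 3 gave −1.992 and −1.996. The mean was −1.39 ± 0.44 (limma adjusted p = 0.242); RefSeq lists a transcribed pseudogene, Ndufs5-ps, and hybridization to it was not tested.

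Ndufb9, a subunit of the LYR-motif family, read 245, 130.3 and 158 in HP pools and 387, 372 and 312 in control pools, with no overlap. The ratio was −1.05 ± 0.20 (limma adjusted p = 0.176). Ndufa13, also known as GRIM-19 and needed for complex I assembly in mouse, read 299, 309 and 321 in HP pools and 535, 482 and 670.3 in control pools. HP pools were within a narrow band below every control pool, and array 1 gave −0.84 beside −0.64 and −1.06 on arrays 2 and 3. The mean was −0.85 ± 0.13 (limma adjusted p = 0.175). Ndufb7, which lies on the intermembrane space side, read 154, 103 and 130.2 in HP pools and 239.8, 216 and 202 in control pools. HP lay below control on each array, for a mean of −0.78 ± 0.14 (limma adjusted p = 0.176), or −1.65 with the deposited log ratio.

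Ndufb6 was the exception, with 751, 770.3 and 713 in HP pools and 688, 517 and 449 in control pools. All HP values were above all control values, with HP pools nearly level and control pools spread more widely. The ratio was 0.46 ± 0.16 (limma adjusted p = 0.259), but with arrays centred on their medians it was −0.39, equal to the median of all tested genes under that scaling. Ndufb8 read 151, 138 and 125 in HP pools and 149.6, 126 and 119.6 in control pools, a ratio of 0.07 ± 0.10 that was −0.35 with median centring. Its groups overlapped.

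The remaining membrane arm subunits, by the probe that represents each, did not reach an unadjusted p of 0.05. Ndufc1 read 2741, 1854 and 2098 in HP pools and 2808, 3626 and 3958 in control pools. HP was lower with no overlap, almost level on array 1 (−0.03) and lower on arrays 2 and 3 (−0.97 and −0.92), for a mean of −0.64 ± 0.24 (limma adjusted p = 0.274). Its second probe gave −0.08, −1.31 and −0.95, a mean of −0.78 that passed the unadjusted threshold (limma adjusted p = 0.277 over probes), so both probes were nearest 0 on array 1 and lowest on array 2. Ndufb3 differed in direction between arrays, with 419.9, 169 and 195 in HP pools and 191, 299.7 and 288 in control pools, with a ratio of 1.13 on array 1 against −0.83 and −0.56 on the others. Ndufb10 was at −0.37 and Ndufb2 at −0.36, both negative on all arrays, while Ndufb4 (−0.18), Ndufb11 (−0.10), Ndufa1 (−0.06) and Ndufa8 (−0.03) were of mixed sign over the arrays. The second Ndufa1 probe was negative on all arrays, at −0.25, −0.31 and −0.58, with a mean of −0.38 that passed the unadjusted threshold (limma adjusted p = 0.259 over probes). RefSeq lists near copies of Ndufb4 (Ndufb4b and Ndufb4c), Ndufs6 (Ndufs6b), Ndufab1 (Ndufab1-ps) and Ndufa11 (Ndufa11b), and hybridization to them was not tested. Ndufa3, Ndufa10, Ndufa11 and Ndufb5 failed the filter.

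Ndufab1, the mitochondrial acyl carrier protein, is bound in both arms. It read 86.2, 108 and 132 in HP pools and 120.0, 207 and 242 in control pools, lower on each array though the groups overlap. The ratio was −0.76 ± 0.14 (limma adjusted p = 0.176), or −2.02 with the deposited log ratio. Its probe was well above background on 2 HP arrays and 3 control arrays, and its other 3 probes failed the filter. Ndufaf1, which helps build the membrane arm, was near background with −0.15 ± 0.12 (limma adjusted p = 0.488). With the deposited log ratio it was at −1.73, which passed the unadjusted threshold (limma adjusted p = 0.274). Ndufa4, the complex IV protein, read 999, 488 and 540.3 in HP pools and 1022, 1256 and 836 in control pools, a ratio of −0.68 ± 0.29 (limma adjusted p = 0.312) with overlapping groups.

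**Figure D2:**
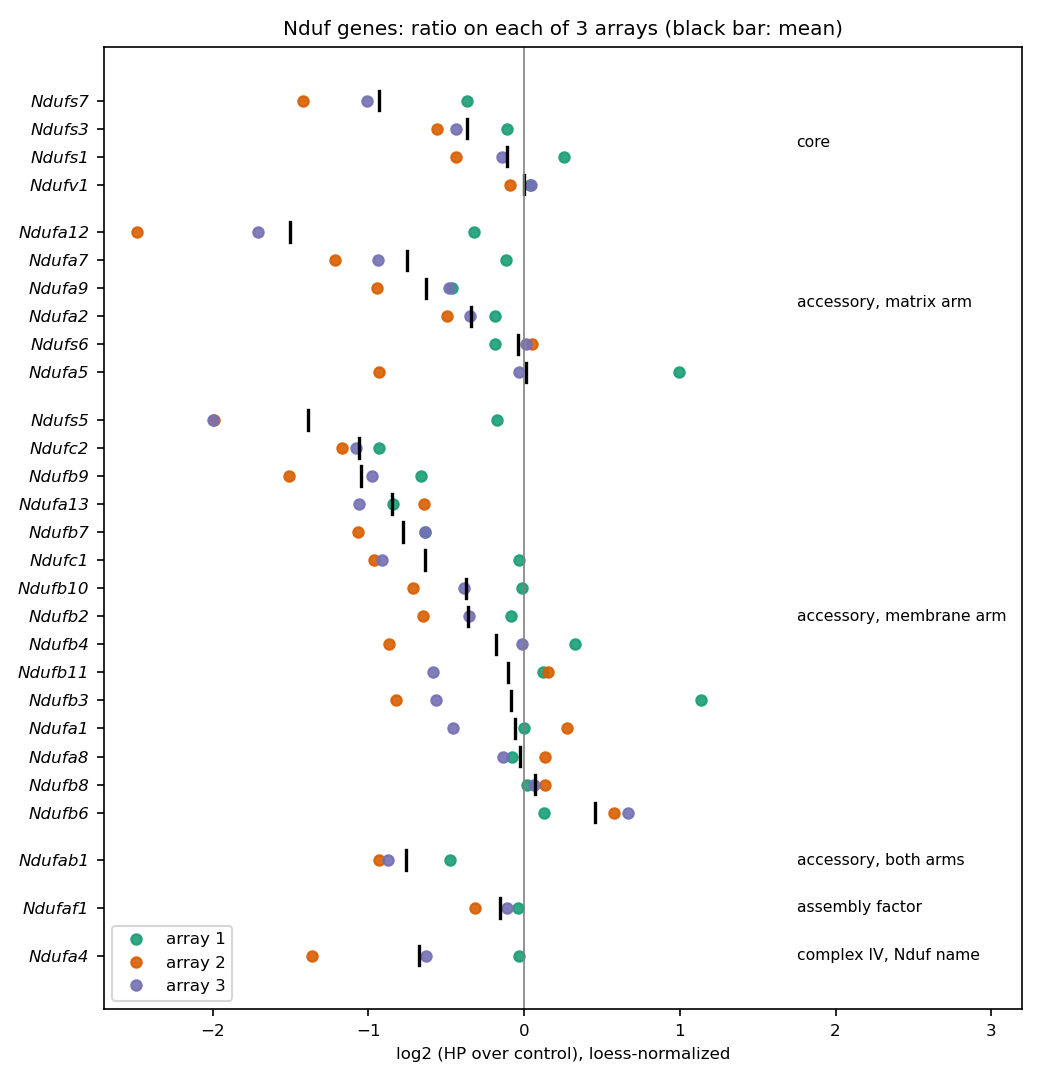
Log2 ratio (HP over control, x axis) of each tested Nduf gene on arrays 1, 2 and 3 (coloured points) with the mean (black bar), grouped by role and ordered by the mean. Ndufa12 and Ndufs5 reach −1.51 and −1.39 through arrays 2 and 3, Ndufc2 is close to −1.06 on all arrays, and Ndufb6 lies above 0 on each.

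Across the family, 12 genes had all 3 HP signals below all 3 control signals (background 13.2%), 1 had them above (13.3%) and 15 overlapped. The 12 include Ndufaf1, which passed the filter only through control. Of the 11 lower genes at an unadjusted p under 0.05, 9 did not overlap, the exceptions being Ndufab1 and Ndufa2. The 11 were picked by p on these same values, so this separation comes in part from the choice. Overlap was not counted among all genes called lower. Array 1 gave the ratio nearest 0 of the 3 arrays in 21 of 28 genes, and array 2 the lowest in 20. In 9 of the 11 lower genes the ratio of array 1 was the highest. These array patterns were not counted over all tested genes, so they are not shown to be particular to Nduf genes. Without array 2, without array 3, or with replicates 2 and 3 counted as 1, the same 6 genes of the 11 kept an unadjusted p under 0.05: Ndufa13, Ndufa9, Ndufab1, Ndufb7, Ndufb9 and Ndufc2. Ndufa12, Ndufs5, Ndufs7, Ndufa7 and Ndufa2 did not. With the deposited log ratio 7 of the 11 kept an unadjusted p under 0.05. Ndufa9 did not, at −0.62 (limma unadjusted p = 0.096), unlike the rest of the 6. How many of all genes called lower kept it was not counted.

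**Figure D3:**
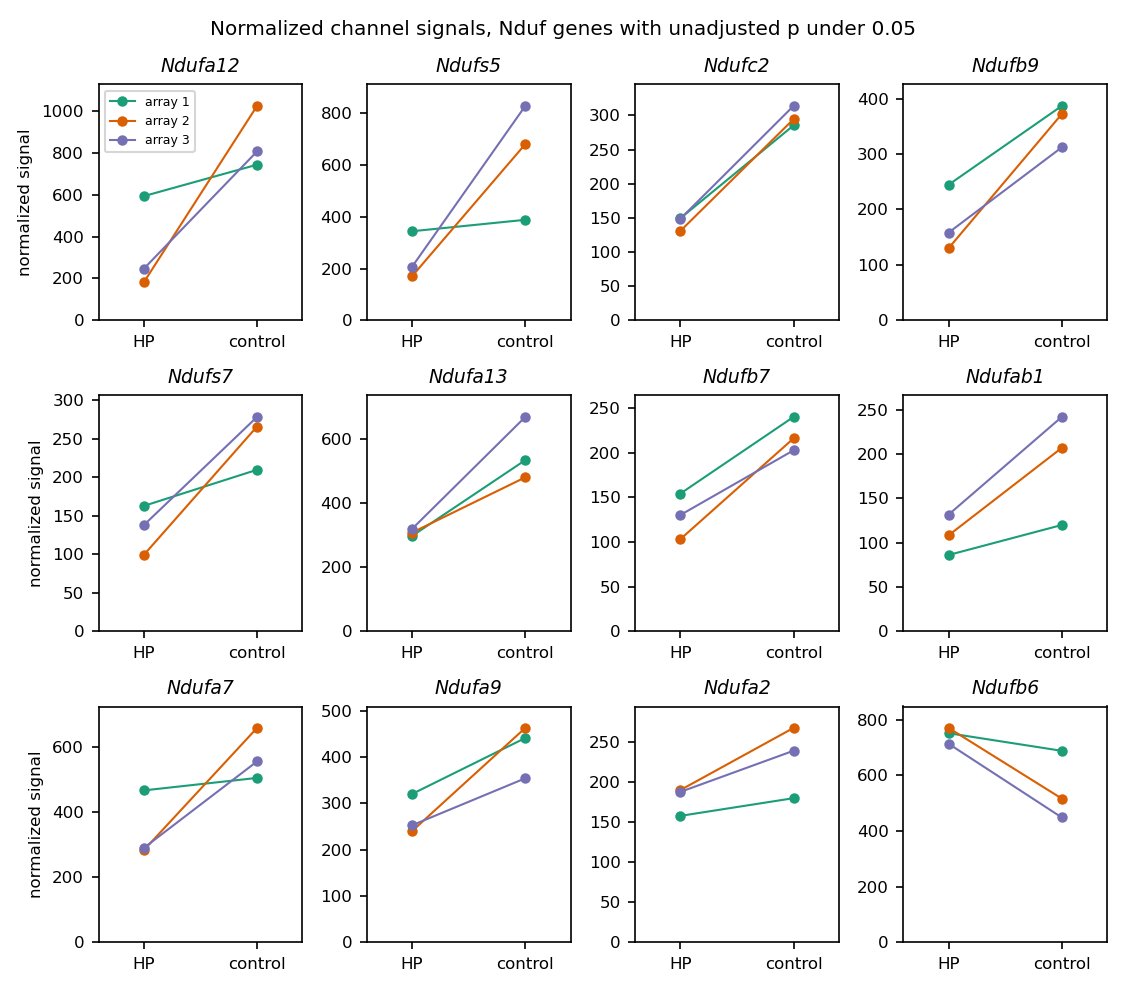
Normalized channel signal (y axis, arbitrary units, from 0) in the HP and control pools of the 12 Nduf genes with an unadjusted p under 0.05, 1 line per array. In 9 of the 11 lower genes every HP point is below every control point, in genes picked by p on these same values. Ndufb6 runs the other way.

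Dim probes gave ratios close to 0. The 19 untested Nduf probes had mean ratios of −0.33 to 0.05, and 6 of the 9 untested genes were above background on no array, the other 3 (Ndufa3, Ndufa6 and Ndufs4) on 1 control array. The offset of 50 added to both channels pulls ratios of dim probes toward 0, and with an offset of 0 the Nduf median was −0.49. An untested gene is therefore not shown to be unchanged. Of the 52 Nduf probes, 30, 32 and 28 were above background in HP pools 1, 2 and 3, against 33, 35 and 32 in control pools. The share of all non-control spots had the same direction on each array, at 19.1%, 19.9% and 17.5% for HP and 20%, 23.2% and 18.5% for control. That share counts spots, whereas the Nduf values count probes.

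**Figure D4:**
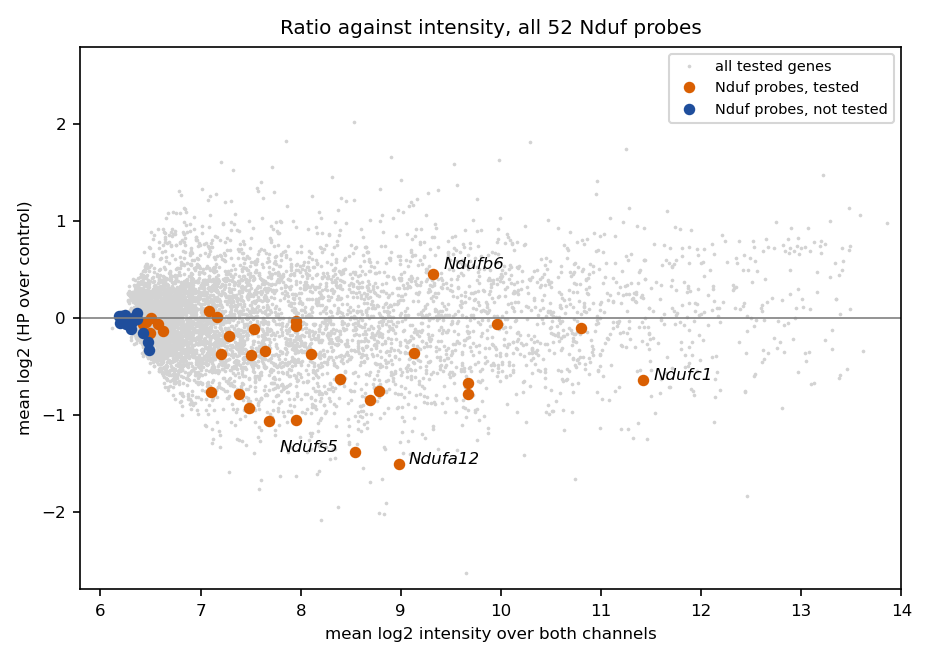
Mean log2 ratio (HP over control, y axis) against mean log2 intensity over both channels (x axis) for all 52 Nduf probes, with all tested genes in grey. The 19 untested probes sit at the dim end with ratios of −0.33 to 0.05.

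Other genes of the pathway were counted from lists. Of 7 tested complex I assembly factors without an Nduf name all 7 had a negative mean (median −0.15), against 51.7% of all tested genes. At an unadjusted p under 0.05 in limma's test 2 were lower, against 11.2%. They were Dmac1, which helps build the distal membrane arm, at −0.40 ± 0.11 and Ecsit at −0.41 ± 0.14. Acad9 was at −0.38 ± 0.17. Timmdc1, at −0.03, passed the filter only through control (well above background on 1 HP and 3 control arrays). Only 3 of the 7 were negative on all 3 arrays (25% of all tested genes), and on array 3 42.9% were negative (48.9%). In complexes II to V, 26 of 34 tested genes were negative (median −0.24), against 51.7% of all tested genes. The ratio was negative on all 3 arrays in 17 of the 34, against 25%. These include Atp5j2, which passed the filter only through control (well above background on 1 HP and 3 control arrays). At an unadjusted p under 0.05 in limma's test, 12 were lower (11.2% of all tested genes) and 1 was higher (7.25%). The only tested complex II gene, Sdhd, its membrane anchor, was at −1.05 ± 0.18. Complex III had a median of −0.38 over 8 genes, with its core protein Uqcrc1 at −1.03 ± 0.19, Uqcr11 at −0.56 ± 0.10 and Uqcrb at −0.42 ± 0.10. Complex IV, at −0.03 over 11 genes, held Cox5b at −0.46 ± 0.10, Cox5a at 0.49 ± 0.12 and Cox6c at −0.48 ± 0.14. Complex V (ATP synthase) had −0.27 over 14 genes, with Atp5j at −0.76 ± 0.14, Atp5g3 at −0.55 ± 0.11 and Atp5e at −0.60 ± 0.16. No gene in these lists passed an adjusted p of 0.05 in limma's test, and the difference between the complexes was not tested.

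Of the settings tried, the scaling moved the Nduf median furthest. With each array centred on its median in place of loess, the median of all tested genes was −0.39 and that of Nduf genes −1.07, and 28 of 28 were negative; 19 were lower at an unadjusted p under 0.05 (background 35.1%) and 7 passed an adjusted p of 0.05 in limma (background 14.2%). The Nduf median stayed below that of all genes in every setting tried, by 0.15 to 0.67 on the log2 scale.

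**Figure D5:**
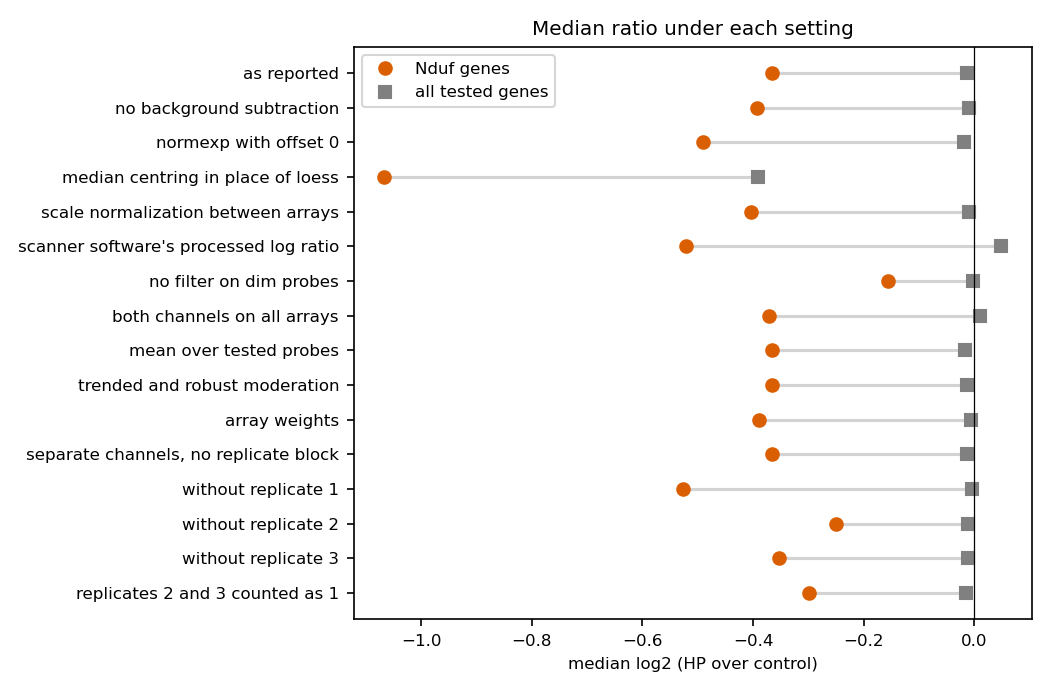
Median log2 ratio (HP over control, x axis) of Nduf genes (circles) and of all tested genes (squares) under each processing setting. The Nduf median is below that of all genes in each, from −0.16 with no filter on dim probes to −1.07 with median centring.

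Some promoters of the members hold the same short motif. From RefSeq (GRCm38.p6), 250 bases before to 50 after each gene's start were read for 33 of the 37 genes (35 promoters). Both strands were searched for AAGATGGC (YY1), CCGGAAG (GABP) and the palindromic NRF1 consensus, named for factors known to bind nuclear genes of mitochondrial proteins. Each motif was searched on its own, so matches of different motifs may overlap. AAGATGGC was found in 7 of 35 Nduf promoters (20%), against 2.75% of all 32851 promoters. CCGGAAG was in 5 (14.3%, against 8.86%) and the NRF1 consensus in 1 (2.86%, against 0.971%). Nduf promoters were richer in G and C, with a median of 59% against 52.7% for all promoters. The shares were not matched for this. The windows that hold AAGATGGC are shown, 30 bases each, 5′ to 3′ on the gene's strand, with the motif in capitals.
Ndufa3, chr7:3617384-3617413 (+): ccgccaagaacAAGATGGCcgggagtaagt
Ndufa9, chr6:126849097-126849126 (-): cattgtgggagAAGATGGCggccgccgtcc
Ndufb8, chr19:44555393-44555422 (-): tgaaccgcggagaaggtgAAGATGGCtgcc
Ndufc1, chr3:51408915-51408944 (-): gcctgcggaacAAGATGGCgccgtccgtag
Ndufs4, chr13:114388045-114388074 (-): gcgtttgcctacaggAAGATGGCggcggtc
Ndufs6, chr13:73328433-73328462 (-): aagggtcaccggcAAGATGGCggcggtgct
Ndufs7, chr10:80249462-80249491 (+): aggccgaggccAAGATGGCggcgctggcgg
In all 7 the motif lies on the gene's own strand, starting 23 to 39 bases after the gene's start. Its letters contain ATG, and whether that is a start codon was not tested. Of the lower genes at an unadjusted p under 0.05 that had a promoter, 2 of 9 held it (Ndufa9 and Ndufs7), and of the other tested genes 3 of 16 did (Ndufb8, Ndufc1 and Ndufs6). A match of letters is a description and shows no binding.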

How the data were processed

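Total RNA of pooled embryos was amplified in successive rounds and labelled with Cy5 (HP) or Cy3 (control), per the labels' protocols. The scanner software was Agilent Feature Extraction 9.5.1.1, per the submitters' processing notes. Deposited mean and background signals are intensity values without background subtraction. The deposited log ratio, also in the authors' series table, is log10 of Cy5 over Cy3 processed signals, per the file headers.

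Signals were background-corrected with normexp (offset 50) and loess-normalized within each array in limma 3.58.1 (R 4.3.3, statmod 1.5.0); outlier spots (208, 172 and 325 on arrays 1, 2 and 3) were dropped and spots of a probe averaged. Probes entered the test if 1 channel was well above background on 2 or more of the 3 arrays (8590 probes), and the brightest tested probe stood for its gene (7254 genes). Symbols follow RefSeq for genes of the lists; members go by the array's own names. An intercept was fitted to log2 ratios with empirical Bayes moderation and Benjamini-Hochberg adjustment over all tested genes. Each SE is the moderated one of this fit. Channel signals are after Aquantile scaling. The array pairs the pools of the same number; all arrays were on 1 slide and 1 scan. The number of arrays limits precision. The test was tried on 3 simulated arrays of 7254 genes, and no simulation of the earlier steps is reported. Of 100 genes given a log2 change of −1, 14 passed the adjusted threshold and 85 the unadjusted one. At a change of −2 it was 76 and 98 of 100. Among 7054 genes given no change it was 8 and 339. Missing the adjusted threshold therefore does not show that a gene is unchanged.

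Full values are given for tested core subunits, tested genes with an unadjusted p under 0.05 and the 3 highest ratios, and for other lists the 3 smallest p; values of other members were chosen after they were seen. The members and lists were chosen with earlier results of these data known. Alternatives covered background correction, scaling, filters, probe summary, moderation, array weights, separate channels and leaving out each replicate. Values of 1 member are not reported here.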

Additional observations from a re-analysis of the deposited data

How the results depend on the processing

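The median of Nduf genes kept its sign in every setting tried. The count of lower genes at an unadjusted p under 0.05 was 11 as reported (11.2% of all tested genes), 7 when arrays were scaled to each other (8.34%), 19 with median centring (35.1%), 6 with replicates 2 and 3 counted as 1 (6.78%), and 6 to 17 without one replicate (5.92% to 14%). At an unadjusted p under 0.01 it was 5 (3.29%). The count of higher genes was 1 as reported and 0 with an offset of 0, median centring, scale normalization, the scanner software's log ratio, the series table, trended and robust moderation, replicates 2 and 3 counted as 1, and p under 0.01; it was 0 to 1 without one replicate. Under median centring the median was −1.07 and 7 genes passed the adjusted threshold; the cause was not tested. With separate channels and no replicate block, 12 genes were lower, 1 higher and the median was −0.37, so leaving out the pairing moved none of them by over 1.5 times.

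Of 444 values for single genes under other settings, 412 kept direction and side of the threshold, 25 changed sign and 7 newly passed the adjusted threshold, all under median centring (Ndufa13, Ndufa9, Ndufab1, Ndufb7, Ndufb9, Ndufc2 and Ndufs7). Sign changes under scaling were Ndufb6 (−0.39), Ndufb8 (−0.35) and Ndufa5 (−0.44) with median centring, and Ndufa5 with scale normalization (−0.014) or array weights (−0.069). With the scanner software's log ratio and the series table, Ndufa8 was at 0.098 and Ndufv1 at 0.42, and Ndufab1 (−2.02), Ndufs7 (−1.87), Ndufc2 (−1.82), Ndufaf1 (−1.73) and Ndufb7 (−1.65) lay over 1.5 times further from 0 in fold than as reported. Ndufv1 was at 0.049 with no background subtraction, 0.00798 with an offset of 0, 0.0106 with scale normalization, 0.0111 with array weights, and 0.00715 with replicates 2 and 3 counted as 1, where Ndufb3 was at 0.22. Leaving out each replicate in turn gave ranges that cross 0 for Ndufa1 (−0.23 to 0.14), Ndufa5 (−0.48 to 0.48), Ndufa8 (−0.11 to 0.027), Ndufb11 (−0.23 to 0.14), Ndufb3 (−0.70 to 0.28), Ndufb4 (−0.44 to 0.16), Ndufs1 (−0.29 to 0.055), Ndufs6 (−0.086 to 0.033) and Ndufv1 (−0.027 to 0.041). The cause was not tested. Dim probes limit Ndufv1, Ndufs6 and Ndufaf1, whose signals lie near background.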

Other observations

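RefSeq now gives an Nduf name to 5 tested genes that the array annotation lists under clone names, and which are therefore not among the 28. Ndufaf4, an assembly factor, read 447, 369 and 367 in HP pools and 957, 704 and 567 in control pools, with no overlap and a ratio of −0.89 ± 0.14 (limma adjusted p = 0.175). Ndufaf6 ran the other way, with 220.0, 228 and 189 in HP pools and 82.1, 172 and 151 in control pools, a ratio of 0.72 ± 0.27 (limma adjusted p = 0.278). Ndufaf7 was at 0.24, Ndufv3 at 0.08 and Ndufaf2 at −0.09.

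Among 7 tested regulators of mitochondrial biogenesis the median was 0.10. Polrmt, the mitochondrial RNA polymerase, read 815, 569.6 and 566 in HP pools and 1258, 1348 and 1263 in control pools, all HP values below all control values, with a ratio of −1.01 ± 0.17 (limma adjusted p = 0.175). Tfam, which packages mitochondrial DNA, was at 0.40 ± 0.15 (limma adjusted p = 0.282), with overlapping groups, and Pprc1 at 0.38 ± 0.18.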
